A study of Drosophila melanogaster with 10 samples.

Results

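The genes of the muscle sarcomere were followed in the Malpighian tubule, the fluid-secreting epithelium of the fly, against the whole adult. The set was drawn up by name and holds 32 genes for filament proteins, for proteins of the Z-disc and its linkers, and for an arginine kinase. Of these, 26 had at least 1 probe set that the annotation gives to them alone, with 39 probe sets in all, out of 10844 such genes on the array. Where a gene had several, it was read from that of highest mean signal over the 10 arrays. The other 6, Mhc (muscle myosin heavy chain), Tm1 (a tropomyosin), wupA (troponin I), TpnC47D and TpnC25D (troponin C isoforms) and Act57B (an actin), had none and are named only.

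RNA was taken from Malpighian tubules cut free from the gut of 7 day adult Oregon R flies of mixed sexes, on 5 arrays numbered 2 to 6. These arrays were set against those of whole flies of the same strain, age and cultures, again on 5 arrays with the same numbers, and a tubule and a fly array of 1 number form a matched pair. Oregon R is a wild-type strain, and neither group carried a transgene or received an agent. Both were pools of many animals, and the whole flies contain their own tubules. Signal is the MAS 5.0 intensity, a linear measure in arbitrary units that was scaled to the same trimmed mean on each array (100.02 to 100.03, with 2% left out at each end). Its lowest value was 0.1, and the median probe set stood at 25.5 to 28.2 in tubule arrays and at 41.6 to 45.9 in fly arrays. All 6 measured marker genes of the tubule were higher in tubule arrays, with a median log2 fold change of 3.55. The study's own tables from these arrays already list them as enriched, so this is no independent check of the labels.

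A sarcomere is the repeating unit of a striated muscle. Thick filaments of myosin pull on thin filaments of actin, which carry tropomyosin and the troponins T, I and C and are anchored in Z-discs, and calcium bound to troponin C starts the contraction. Flies use different actins and troponin Cs in different muscles. The indirect flight muscle, which beats the wings by stretch activation, has its own isoforms, while leg, abdominal and visceral muscles use others. The tubule itself is an epithelium, and visceral muscle is known from the gut and from the ureter by which the tubules join it.

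Sarcomere genes were lower in tubule. Of the 26 measured, 25 were lower, 0 were higher and 1 was not called (limma, adjusted p under 0.05 over all 13966 probe sets), where 36.3% of all probe sets were called lower and 16.8% higher (53.1% in either direction). Among the 6606 probe sets with a whole fly mean of at least 50 the share called lower was 50.5%. In the same 25 genes every tubule array lay below every fly array, which 29.6% of all probe sets did. The median log2 fold change, tubule minus whole fly, was -2.99 over the 26 genes and -0.32 over all probe sets. In these bulk samples, fewer muscle cells and less of the RNA per cell cannot be told apart.

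The size of the difference ranged widely. By the fitted fold change 22 of the 26 genes were at least 2-fold lower, 19 at least 4-fold, 12 at least 8-fold and 5 at least 32-fold. Of all 13966 probe sets, 4350, 2247, 1075 and 108 passed the same limits. A signal of 50 is used here as a mark for low signals, since the deposited values carry no detection calls. In all 5 fly arrays 24 of the 26 genes reached it. In all 5 tubule arrays 9 genes did, and in no tubule array did 12. Where the tubule signal is below this mark the size of a fold change depends on signals near the bottom of the array, and 7 genes had a tubule mean under 10.

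**Figure D1:**
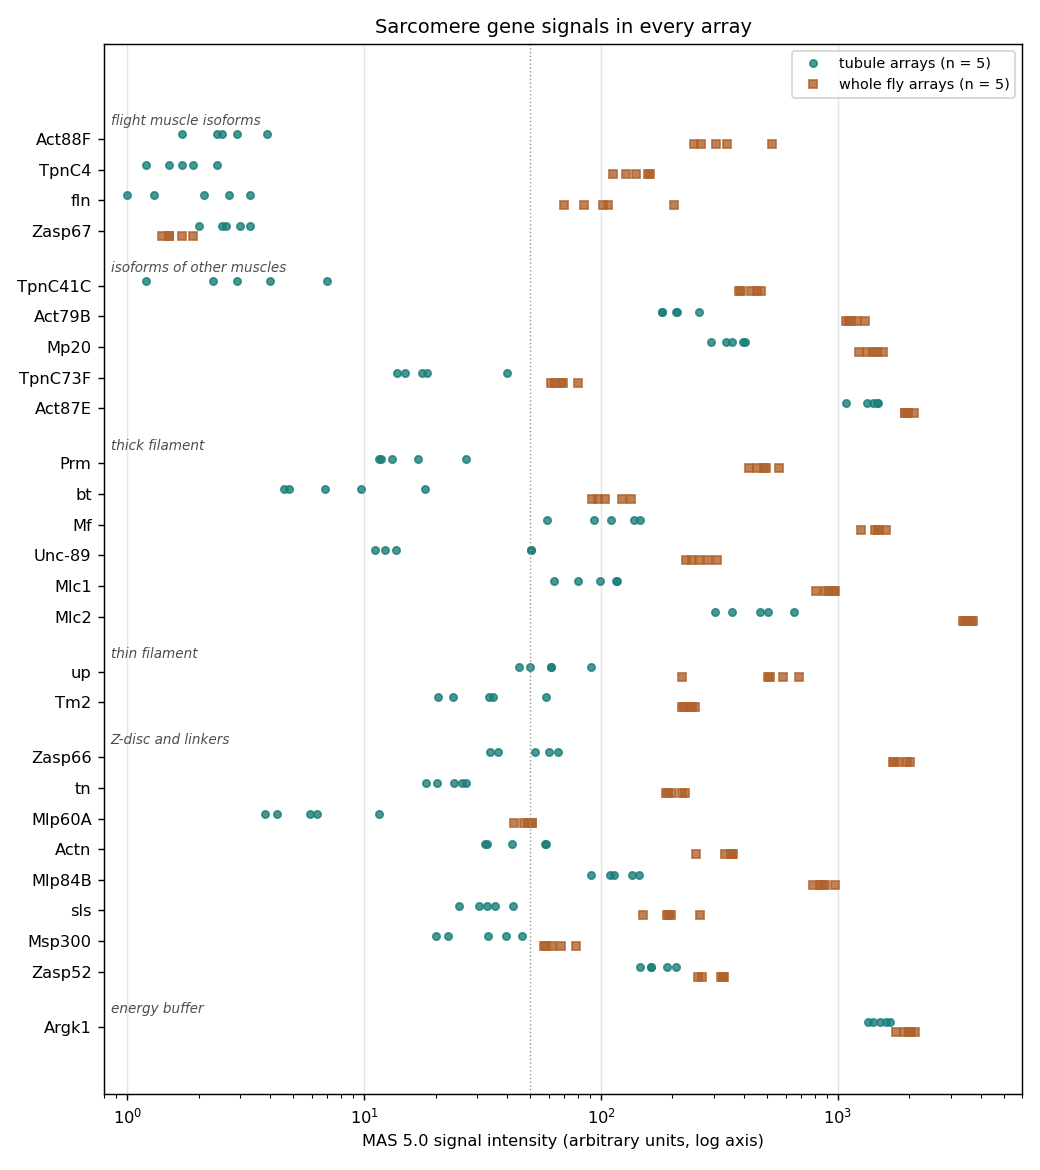
Signal (MAS 5.0 intensity, log axis) of the 26 sarcomere genes in each of the 5 tubule arrays (circles, upper row of each gene) and the 5 whole fly arrays (squares, lower row), grouped by role and ordered by log2 fold change; the dotted line marks a signal of 50. In 25 genes the circles lie wholly to the left of the squares, and in Zasp67 wholly to the right, at signals of 1.4 to 3.3. Signals of different genes come from different probes and are not to be compared with each other.

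Of the 4 genes known for the flight muscle, 3 were nearly at the bottom of the tubule arrays. Act88F, the actin of the indirect flight muscle, had signals of 2.5, 2.9, 1.7, 3.9 and 2.4 in tubule arrays 2 to 6, against 525, 341, 264, 247 and 306 in whole fly arrays 2 to 6. In the tubule arrays between 5.20% and 13.5% of all probe sets were at or below it, and in the fly arrays between 88.7% and 94.7%. The groups lay far apart, and fly array 2 was the highest of its group. The log2 fold change was -6.97 (95% interval -7.63 to -6.31, adjusted p = 7e-07, limma), rank 15 from the lowest of all probe sets.

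TpnC4, the troponin C tied to stretch activation of the flight muscle, was similarly low. Its signals were 2.4, 1.9, 1.5, 1.7 and 1.2 in the tubule arrays, against 127, 158, 140.2, 112 and 161 in the whole fly arrays. The groups did not overlap, and the log2 fold change was -6.35 (95% interval -7.08 to -5.62, adjusted p = 1.7e-06).

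The gene fln encodes flightin, a protein that binds the myosin rod in flight muscle thick filaments. It had 3.3, 1.3, 1.0, 2.1 and 2.7 in the tubule arrays, against 202, 107, 84.9, 69.4 and 102 in the whole fly arrays. Again fly array 2 was the highest, and all fly arrays exceeded all tubule arrays. Its log2 fold change was -5.80 (95% interval -6.59 to -5.01, adjusted p = 4.6e-06), and with pair 2 left out it was -5.76. When all signals under 50 were raised to 50, Act88F, TpnC4 and fln had log2 fold changes of -2.70, -1.47 and -1.07, so their direction and call stayed but most of their size came from tubule signals below 50.

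The fourth, Zasp67, a PDZ protein of the Z-disc, was the 1 gene not called. It had signals of 2.5, 2.0, 3.3, 2.6 and 3.0 in the tubule arrays, against 1.5, 1.5, 1.7, 1.9 and 1.4 in the whole fly arrays. Every tubule array was above every fly array, but in both groups the probe set was among the lowest, with at most 13.2% of probe sets at or below it in a tubule array and 4.13% in a fly array. The log2 fold change was 0.73 (95% interval -0.10 to 1.57, adjusted p = 0.12, limma). After quantile normalization it was called higher (1.07, adjusted p = 0.043), and so it was when limma used no trend (adjusted p = 0.014).

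Among the isoforms of other muscles all 5 measured genes were lower, over a range of log2 fold changes from -7.17 to -0.56. TpnC41C, a troponin C of adult muscles, had the lowest fitted value of the sarcomere genes, at rank 10 from the lowest of all probe sets. This rank rests on tubule signals of 1.2 to 7.0: with signals under 50 set to 50, Zasp66, Mf, Mlc1 and Prm were lower than TpnC41C, and with 16 added to each signal Zasp66 was. Its signals were 1.2, 7.0, 2.3, 2.9 and 4.0 in the tubule arrays, against 391, 457, 474, 382 and 429 in the whole fly arrays. All 5 pairs were far apart, and the log2 fold change was -7.17 (95% interval -7.94 to -6.39, adjusted p = 1.3e-06), or -3.09 with signals under 50 set to 50.

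TpnC73F, a troponin C of larval and other non-flight muscles, stood much nearer to the whole fly. It had 40.1, 18.5, 13.7, 14.9 and 17.5 in the tubule arrays, against 79.9, 63.7, 61.3, 67.8 and 69.3 in the whole fly arrays. Tubule array 2 stood apart from the other 4, though still below all fly arrays. Its log2 fold change was -1.82 (95% interval -2.38 to -1.27, adjusted p = 0.00036), and -2.03 without pair 2.

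Act79B, an actin of adult leg and thoracic muscles, had signals of 207, 259, 181, 209 and 180.3 in the tubule arrays, against 1136, 1078.5, 1294.5, 1197 and 1110.2 in the whole fly arrays. The groups did not overlap, and the log2 fold change was -2.50 (95% interval -2.78 to -2.22, adjusted p = 1.5e-06).

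Act87E, an actin of larval and abdominal muscles, had high signals in both groups. It had 1472, 1404.5, 1075, 1458 and 1327 in the tubule arrays, against 2102, 1965, 1920.0, 1974 and 1917.5 in the whole fly arrays. The highest tubule array was still below the lowest fly array, and the log2 fold change was -0.56 (95% interval -0.77 to -0.35, adjusted p = 0.00099). It was -1.08 after quantile normalization (adjusted p = 3.2e-05) and -0.90 with RpL32, a ribosomal protein gene, held constant (adjusted p = 0.00044). The names of the Act79B and Act87E probe sets mark them as sharing probes with related genes, so RNA of other actins, cytoplasmic ones included, may be part of both signals and cannot be told apart from theirs. Mp20, a calponin-like protein of muscles other than the flight muscle, averaged 357 ± 47.0 in tubule and 1391 ± 126 in whole flies (SD, n = 5 each), with a log2 fold change of -1.97 (adjusted p = 2.1e-06).

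The flight muscle isoforms were set against the isoforms of other muscles within each pair, by the median log2 ratio of each list. The difference was -3.87, -4.58, -4.16, -3.33 and -4.13 in pairs 2 to 6, with a mean of -4.01 ± 0.46 (SD, n = 5 pairs). Against all 22 other sarcomere genes it was -3.23 ± 0.31. The sign was the same in every pair, but it is not a property of all their genes, since Zasp67 was not lower. TpnC41C of the second list had a fitted value as low as theirs. It is a troponin C of adult muscles, and its place outside the flight muscle list was a choice that was not tested. Counting TpnC41C among the flight muscle isoforms could not turn the sign, since it had the lowest fitted value of the sarcomere genes. That setting is therefore no check. The sign rests on signals below 50. With these set to 50 the difference was 0.69, and with 16 added to each signal it was -1.02, so these arrays do not settle whether the flight muscle isoforms were more reduced in proportion than the others. No test was made on it.

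Within a family the ratios of tubule to whole fly can be compared, since each probe set is set against itself. This was done for 10 pairs of genes by an exact permutation test over the 10 arrays (two-sided, smallest possible p = 0.0079), with p adjusted over the 10. The test leaves out the pairing of the arrays, since within 5 pairs no p under 0.0625 is possible. The pairs of genes were chosen after the values were seen. The log2 ratio of Act88F lay below that of Act79B (difference -4.47 ± 0.66, SD, n = 5 pairs) and below that of Act87E (-6.41 ± 0.59), and that of Act79B lay below that of Act87E (-1.94 ± 0.21, exact p = 0.0079, adjusted p = 0.0099 each). The order of the 3 actins was the same in every pair. The probe sets of Act79B and Act87E share probes with related genes, so RNA of other actins may be part of these differences. With signals under 50 set to 50, Act88F minus Act87E was -2.14 (exact permutation test, adjusted p = 0.0088) and Act88F minus Act79B was -0.20 (adjusted p = 0.49), so the second rests on tubule signals of Act88F below that mark.

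The log2 ratios of TpnC41C and TpnC4 both lay below that of TpnC73F, with differences of -5.35 ± 1.21 and -4.53 ± 0.45 (exact permutation test, p = 0.0079, adjusted p = 0.0099 each). All tubule signals of the 3 isoforms were under 50, and with these set to 50 the differences were -2.64 and -1.02. TpnC41C and TpnC4 differed by -0.82 (95% interval -2.34 to 0.71, exact p = 0.15, adjusted p = 0.17), a difference whose interval includes 0. It was -1.62 with signals under 50 set to 50 and -1.39 with 16 added to each signal (exact permutation test, adjusted p = 0.0088 and 0.0079), so this comparison rests on low signals too. Of these, 1 isoform had a tubule mean above 10, TpnC73F with 20.9 ± 10.9.

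The thick filament was low throughout: all 6 measured genes were lower, from -4.99 to -3.00 with a median of -3.70. Prm encodes paramyosin, the core protein of the thick filament in invertebrates. It had signals of 26.9, 13.1, 11.8, 16.9 and 11.5 in the tubule arrays, against 422, 497, 561.5, 457 and 487 in the whole fly arrays. The lowest fly array was far above the highest tubule array, and the log2 fold change was -4.99 (95% interval -5.54 to -4.44, adjusted p = 1.4e-06).

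Mlc2, the regulatory light chain of muscle myosin, had the smallest reduction of the thick filament genes by the fitted values, though not after quantile normalization or with signals under 50 set to 50, where those of bt and Unc-89 were smaller. Its signals were 654, 470.3, 302, 504 and 356 in the tubule arrays, against 3366, 3643, 3714, 3434 and 3486 in the whole fly arrays. All tubule arrays were well above 50, and they spread more widely among themselves than the fly arrays did. It had a log2 fold change of -3.00 (95% interval -3.39 to -2.61, adjusted p = 3.4e-06). Mlc1, the essential light chain, moved by much the same amount (94.9 ± 23.4 in tubule and 906 ± 67.5 in whole flies, SD, n = 5 each, log2 fold change -3.29).

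Mf encodes myofilin, a further thick filament protein, and averaged 109 ± 34.9 in tubule and 1445 ± 124 in whole flies, a log2 fold change of -3.79. The gene bt encodes projectin, a giant titin-like protein that ties thick filaments to the Z-disc, and averaged 8.78 ± 5.55 in tubule and 110 ± 17.6 in whole flies (-3.83). Unc-89, which the current annotation lists as Obsc, encodes obscurin, a giant protein of the M-line. It was uneven in tubule, with 50.7, 13.6, 11.1, 50.4 and 12.2, against 229, 260.1, 307, 242 and 283 in whole flies. Tubule arrays 2 and 5 stood well above the other 3, yet all stayed below the fly arrays (log2 fold change -3.60, 95% interval -4.58 to -2.63, adjusted p = 0.00019).

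Both measured genes of thin filament regulation were lower. The gene up, which encodes troponin T, had 61.2, 50.2, 44.9, 61.6 and 90.6 in the tubule arrays, against 220.0, 515, 685, 507 and 587 in the whole fly arrays. The first of these fly arrays, array 2, was well below the others, and it was still above every tubule array. The log2 fold change was -2.97 (95% interval -3.58 to -2.37, adjusted p = 4.2e-05), and -3.26 without pair 2.

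Tm2, a tropomyosin, had 58.4, 33.6, 20.4, 23.8 and 35.1 in the tubule arrays, against 248, 238, 243, 219 and 224 in the whole fly arrays. The fly arrays were tightly grouped while the tubule arrays spread, without overlap, and the log2 fold change was -2.87 (95% interval -3.37 to -2.37, adjusted p = 1.8e-05).

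All 8 genes of the Z-disc and its linkers were lower, with a median of -2.91, and a range from -5.25 to -0.80. Zasp66, a PDZ protein of the Z-disc that is related to Zasp52, had signals of 60.1, 65.7, 33.9, 52.4 and 36.8 in the tubule arrays, against 1721, 1948, 2008, 1709 and 1791 in the whole fly arrays. In every pair the groups lay far apart, with a log2 fold change of -5.25 (95% interval -5.65 to -4.85, adjusted p = 2.2e-07), or -5.05 with signals under 50 set to 50, so its size moved little with the treatment of low signals.

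Zasp52, an Alp/Enigma family protein of the Z-disc that also serves at integrin adhesion sites, was the least reduced of this group by the fitted values. After quantile normalization Msp300 was less reduced, and with signals under 50 set to 50 Msp300 and Mlp60A were. Zasp52 had 163, 208, 162, 189.5 and 146 in the tubule arrays, against 257, 268, 320.5, 326 and 331 in the whole fly arrays. The groups stood near each other but did not overlap, and the log2 fold change was -0.80 (95% interval -1.11 to -0.48, adjusted p = 0.0014). The log2 ratio of Zasp66 lay below that of Zasp52 (difference -4.45 ± 0.28, exact permutation test, p = 0.0079, adjusted p = 0.0099). Comparisons with Zasp67 are not read, as its signals were at the bottom of both groups.

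The others lay between. Actn, the alpha-actinin that crosslinks thin filaments, averaged 44.8 ± 12.9 in tubule and 331 ± 45.2 in whole flies (log2 fold change -2.92). The gene sls, for the titin-like protein kettin and its longer form, averaged 33.3 ± 6.36 in tubule and 198 ± 39.8 in whole flies (-2.57). The gene tn, whose TRIM protein keeps Z-discs in order, averaged 23.0 ± 3.69 in tubule and 205 ± 17.2 in whole flies (-3.16). In all 3 every tubule array was below every fly array (largest adjusted p = 1.9e-05).

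The muscle LIM proteins Mlp60A and Mlp84B had close ratios. Mlp84B averaged 118 ± 21.6 in tubule and 867 ± 70.9 in whole flies (log2 fold change -2.89, adjusted p = 6e-07), and Mlp60A averaged 6.36 ± 3.06 in tubule and 48.3 ± 3.52 in whole flies (-3.04, adjusted p = 0.00012). Their ratios differed by -0.15 (95% interval -0.90 to 0.60, exact permutation test, p = 0.67, adjusted p = 0.67). The sign turned after quantile normalization (0.75, exact permutation test, adjusted p = 0.044) and with signals under 50 set to 50 (2.88, adjusted p = 0.0088). Mlp60A was near 50 at most even in whole flies, and by itself it was not called with signals under 50 set to 50 (-0.01, adjusted p = 0.31). Msp300, a nesprin that links nuclei to the Z-disc, averaged 32.4 ± 11.1 in tubule and 64.6 ± 8.50 in whole flies (-1.06, adjusted p = 0.0044). It was not called after quantile normalization (-0.42, adjusted p = 0.12).

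Argk1, the arginine kinase that buffers ATP in muscle and is also used outside it, had a small reduction. It had 1411, 1601, 1656, 1334 and 1506 in the tubule arrays, against 2103, 1901, 2036.5, 1752 and 1983 in the whole fly arrays. The highest tubule array and the lowest fly array were near each other, without overlap. The log2 fold change of -0.38 (95% interval -0.58 to -0.19, adjusted p = 0.0053) was close to the median of all probe sets, -0.32, under the deposited scaling. After quantile normalization it was -0.94 (adjusted p = 4.9e-05), where the median of all probe sets was 0.18, and without the trend in limma Argk1 was not called (adjusted p = 0.063).

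**Figure D2:**
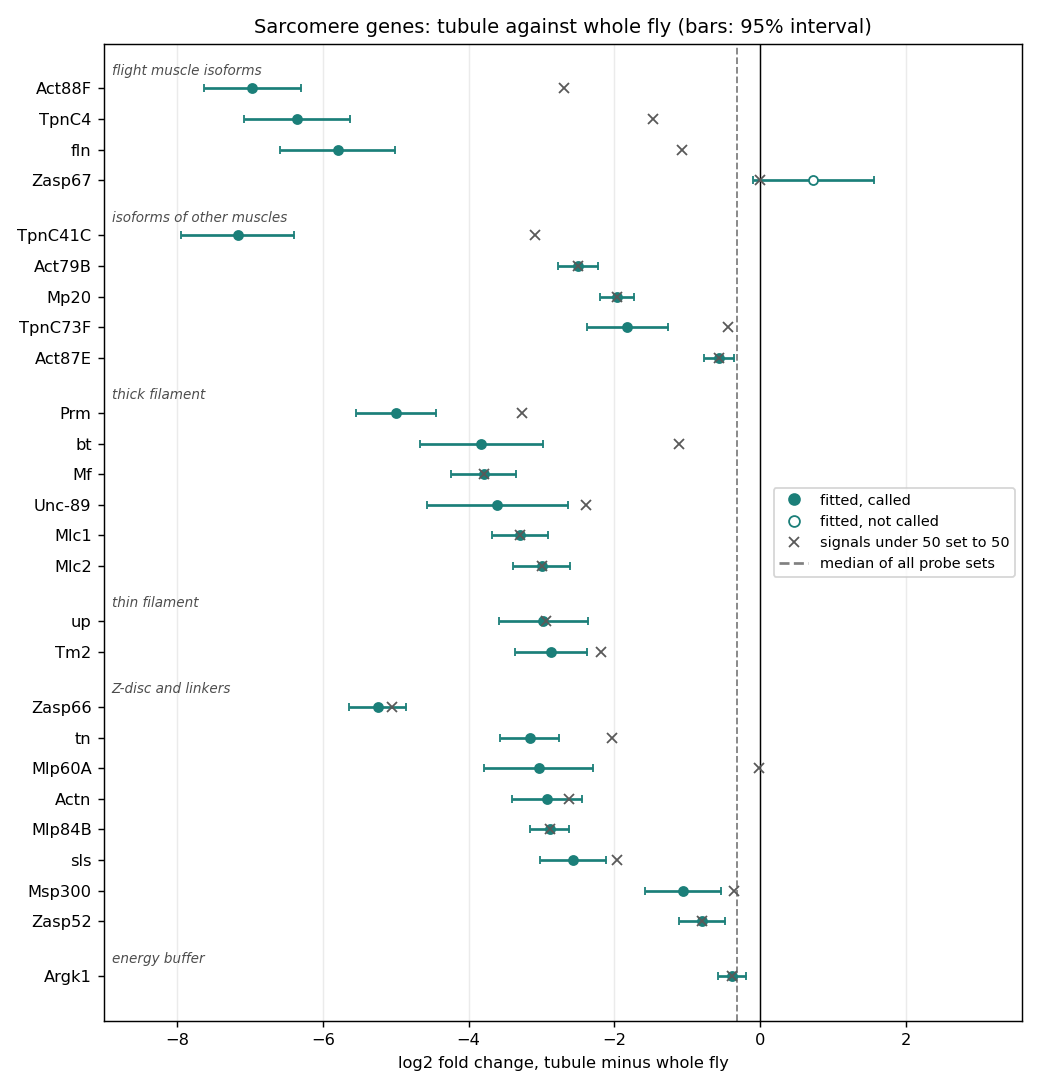
Fitted log2 fold change, tubule minus whole fly, of the 26 sarcomere genes by role (circles, filled where called, with 95% intervals), the value with signals under 50 set to 50 (crosses) and the median of all probe sets (dashed, -0.32). Crosses lie far from the circles in Act88F, TpnC4, fln, TpnC41C, bt and Mlp60A and close to them in Zasp66, Mf, Mlc1, Mlc2 and Mlp84B.

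Reductions that stand on signals of at least 50 in every tubule array were found in 9 genes: Act79B, Act87E, Mp20, Mlc1, Mlc2, Mf, Zasp52, Mlp84B and Argk1. Their log2 fold changes ran from -3.79 in Mf to -0.38 in Argk1. That of Argk1 was not called without the trend in limma. Its second probe set, at least 50 in all arrays, was not called (0.11). They hold 2 actins with shared probes, Mp20, 3 thick filament genes, 2 Z-disc genes and the arginine kinase gene. In each the tubule arrays were below the fly arrays and still well above the median probe set.

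Several genes had more than 1 probe set, and these did not always give the same ratio. Both probe sets of bt were lower (log2 fold change -3.83 and -2.30), and so were both of up (-2.97 and -3.89), the 3 of Zasp52 (-0.80, -0.64 and -1.71) and the 4 of Unc-89. For Unc-89 they ranged from -3.60 to -0.48, and the last of these, with 60.5 ± 4.09 in tubule and 84.5 ± 8.28 in whole flies (SD, n = 5 each), was the only 1 of its 4 to reach 50 in all tubule arrays. Of the 4 probe sets of sls 2 were lower (-2.57 and -0.80), and 2 with means under 5 in both groups were not called (-1.24 and 1.03).

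For Msp300, 1 of 3 probe sets was lower, and the other 2 had means under 5 in both groups (log2 fold change 0.08 and -0.36, not called). The second probe set of Argk1 had 277, 310, 249, 263 and 301 in the tubule arrays, against 213, 299, 216, 337 and 247.5 in the whole fly arrays. These overlapped, and its log2 fold change was 0.11 (95% interval -0.18 to 0.40, adjusted p = 0.5). Which transcripts of these genes each probe set detects was not examined, and with the probe set of the lowest mean signal in place of the highest, 22 of 26 genes were called lower.

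**Figure D3:**
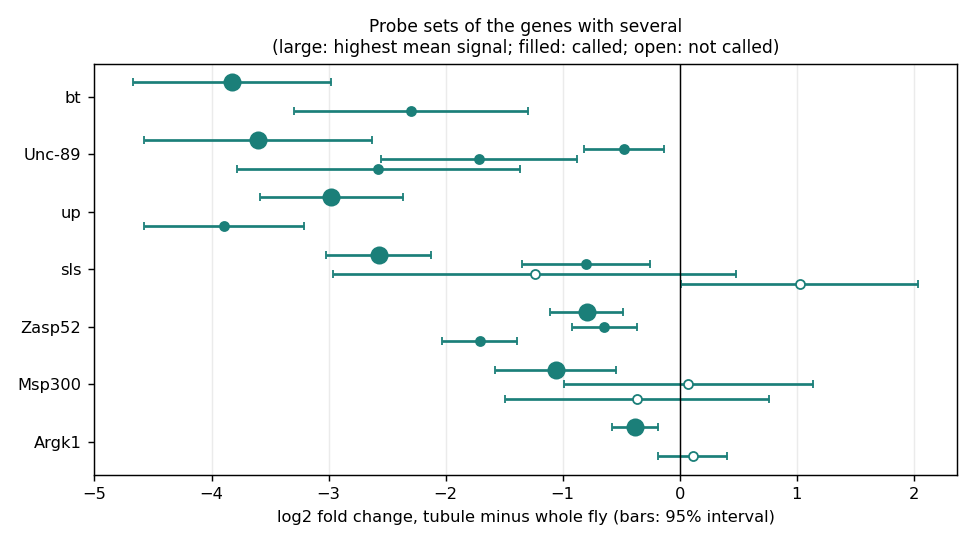
Log2 fold change, tubule minus whole fly, with 95% intervals, of every probe set of the 7 sarcomere genes with more than 1; the large circle is the one of highest mean signal, and open circles were not called. Probe sets of bt, up and Zasp52 lie on 1 side of 0, while sls, Msp300 and Argk1 each have at least 1 that was not called.

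The sarcomere genes also varied among replicate tubule arrays. Their median deviation from the mean of the group was 0.20, 0.09, -0.37, 0.13 and -0.12 log2 in tubule arrays 2 to 6. Among the 10 genes with a tubule mean of at least 50 it was 0.08, 0.10, -0.30, 0.08 and -0.08. Of the 26 genes, 14 were lowest in tubule array 4 and 13 highest in tubule array 2. Of all 13966 probe sets, 2922 were lowest in tubule array 4 and 2763 highest in tubule array 2. In whole fly arrays the medians lay between -0.09 and 0.10. The median log2 ratio of the 26 genes was -2.41, -3.12, -3.60, -2.78 and -2.88 in pairs 2 to 6.

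Markers of 2 other tissues varied among the same tubule arrays. The 29 measured genes for digestive enzymes of the midgut, of which 23 were lower, had median deviations of 1.23, 1.44, -1.93, 0.68 and -1.27 in tubule arrays 2 to 6, of the same sign as the sarcomere genes in each. Their summed signal was 2695 to 38609 in tubule arrays and 69659 to 89763 in fly arrays. The 14 genes of the accessory gland and ejaculatory duct, all lower, had medians of 1.19, -0.97, 1.07, 1.77 and -3.04, with a summed signal of 152 to 5060 in tubule arrays and 9753 to 16735 in fly arrays. Lists of other tissues were low as well. The 6 photoreceptor genes were all lower (median log2 fold change -4.94), as were 9 of 12 neuronal genes (-1.63) and 8 of 10 fat body and haemolymph genes (-2.13, 1 higher), beside -2.72 for the midgut and -2.99 for the accessory gland list. Of all probe sets 36.3% were called lower. With signals under 50 set to 50, 2453 of all 13966 probe sets were lower. Lower calls then numbered 16 of 29 midgut, 10 of 14 accessory gland, 4 of 6 photoreceptor and 7 of 10 fat body genes. Of the 12 neuronal genes 1 was then lower. After quantile normalization 4 of them were, where 3446 of all 13966 probe sets were lower. The summed signal of the sarcomere genes was 4178 to 5141 in tubule arrays and 17982 to 20192 in fly arrays. The part of such tissue in the sarcomere signals was not tested. With pair 4 left out 25 sarcomere genes were lower and their median was -2.86, and with pair 2 left out 25 were lower and the median was -3.14.

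**Figure D4:**
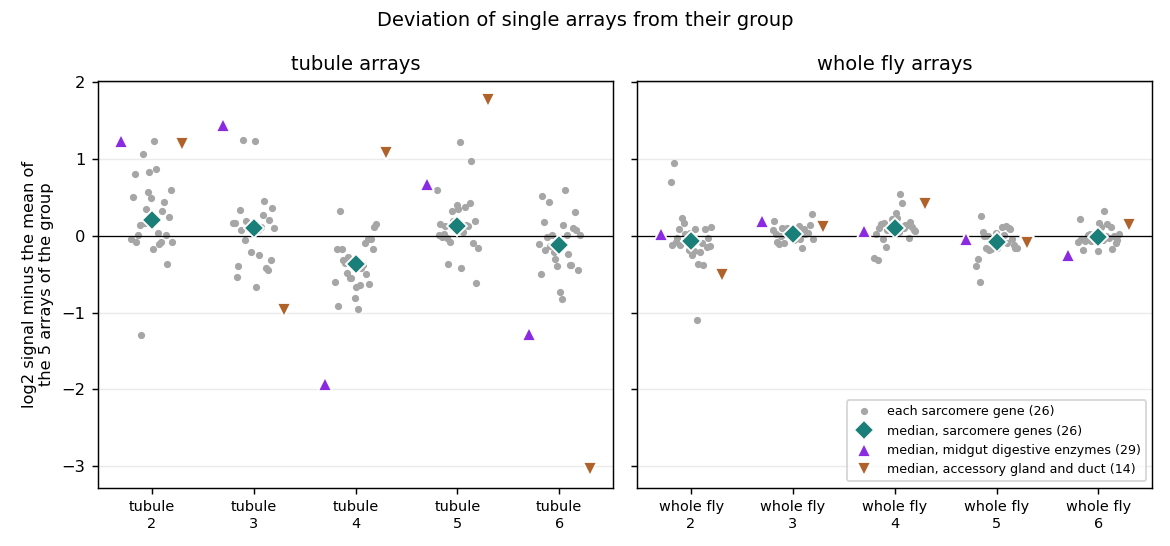
Log2 signal of each of the 26 sarcomere genes minus its mean over the 5 arrays of the group (grey), with the median of these genes (diamonds), of 29 midgut digestive enzyme genes (triangles up) and of 14 accessory gland and ejaculatory duct genes (triangles down), in tubule arrays (left) and whole fly arrays (right). The medians of the sarcomere genes stay between -0.37 and 0.20, while those of the midgut genes in tubule arrays range from -1.93 to 1.44.

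In whole fly array 2 Act88F and fln were at their highest of the 5 fly arrays, and up, Actn and sls at their lowest. Over the 26 genes it was the highest array for 7 and the lowest for 9, while array 4 was the highest for 13 and array 5 the lowest for 11. Over all 13966 probe sets array 2 was the highest for 2973 and the lowest for 4383. The cause was not tested.

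Genes that serve muscle without being part of the filaments held calls in both directions, and the shares of all probe sets called, 36.3% lower and 16.8% higher, stand beside the counts of each list here. Of 10 genes of excitation and calcium handling 4 were lower, 1 was higher and 5 were not called, with a median of -0.23. RyR, the calcium release channel of the sarcoplasmic reticulum, had 4.1, 5.6, 14.4, 4.1 and 2.5 in the tubule arrays, against 96.8, 110.4, 147, 113 and 119 in the whole fly arrays. The groups lay far apart, and the log2 fold change was -4.51 (adjusted p = 1.8e-05). SERCA, the pump that returns calcium to the store in all cells, averaged 858 in tubule and 1507 in whole flies (-0.81, adjusted p = 0.00028), and jp, the junctophilin gene, and Ca-alpha1D, a voltage-gated calcium channel gene, were also lower (-0.86 and -2.30). Amph, the amphiphysin gene, which acts in the T-tubules of fly muscle and at other membranes, was higher (155 in tubule and 64.0 in whole flies, log2 fold change 1.30, adjusted p = 0.00013). Ca-beta, nAChRalpha1, GluRIIA, GluRIIB and stj were not called. Ca-alpha1D was not called with signals under 50 set to 50 (adjusted p = 1.0), and RyR was then at -1.22. Under the deposited scaling the counts, 4 lower and 1 higher, are near the shares over all probe sets. After quantile normalization 2 of the list were lower and 4 higher, where 3446 and 4148 of all 13966 probe sets were.

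Of 10 measured genes of sarcomere assembly and regulation 5 were lower, 2 higher and 3 not called (Mef2, Lasp and how had no value), again near the shares over all probe sets, which were 50.5% lower and 22.3% higher where the whole fly mean was at least 50. DAAM, a formin that nucleates actin filaments in muscle and in epithelia, had 399, 458, 519, 438.5 and 372 in the tubule arrays, against 73.9, 101, 86.1, 106 and 115 in the whole fly arrays. It was higher in every tubule array, with a log2 fold change of 2.19 (adjusted p = 9e-06). Dys, the dystrophin gene, was higher as well (256 in tubule and 111 in whole flies, 1.21, adjusted p = 3.6e-05). Fhos, a second formin that shapes flight muscle filaments, was lower (239 in tubule and 631 in whole flies, -1.40, adjusted p = 4.6e-05), and so were Strn-Mlck (a myosin light chain kinase, -1.25), flw (a catalytic subunit of protein phosphatase 1, -0.76), tmod (tropomodulin, which caps thin filaments, -0.50) and vg (a selector gene of wing and flight muscle, -3.83 at signals of at most 17.0, not called with signals under 50 set to 50). The chaperone gene unc-45, Mbs and ap were not called.

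Beside the 36.3% of all probe sets called lower and 16.8% called higher, 2 of 11 genes of muscle attachment were lower and 3 higher. The other 6 were not called, and the median of the list was 0.18. The wech gene, for an adaptor of integrin adhesion, was the lowest (9.96 in tubule and 87.6 in whole flies, log2 fold change -3.51, adjusted p = 0.00018), and Tig, an extracellular integrin ligand known as tiggrin, was lower too (-2.59). With signals under 50 set to 50 wech was at -0.78, and Tig was not called (-0.49, adjusted p = 0.073). The integrin gene if was higher (61.5 in tubule and 36.5 in whole flies, 0.75, not called with signals under 50 set to 50, adjusted p = 0.075), and so were rhea, the talin gene (0.37), and stck, the PINCH gene (0.33). The counts of higher calls here depend on the scaling, with 0 when RpL32 was held constant, and on single arrays, with 0 without pair 6 and 1 without pair 5. The genes mys, Vinc, Ilk, parvin, Tsp and kon were not called. Of 6 nonmuscle counterparts of sarcomere proteins 1 was measured: Mlc-c, the cytoplasmic essential light chain of myosin, was higher in tubule (379 in tubule and 161 in whole flies, log2 fold change 1.24, adjusted p = 3.2e-05).

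**Figure D5:**
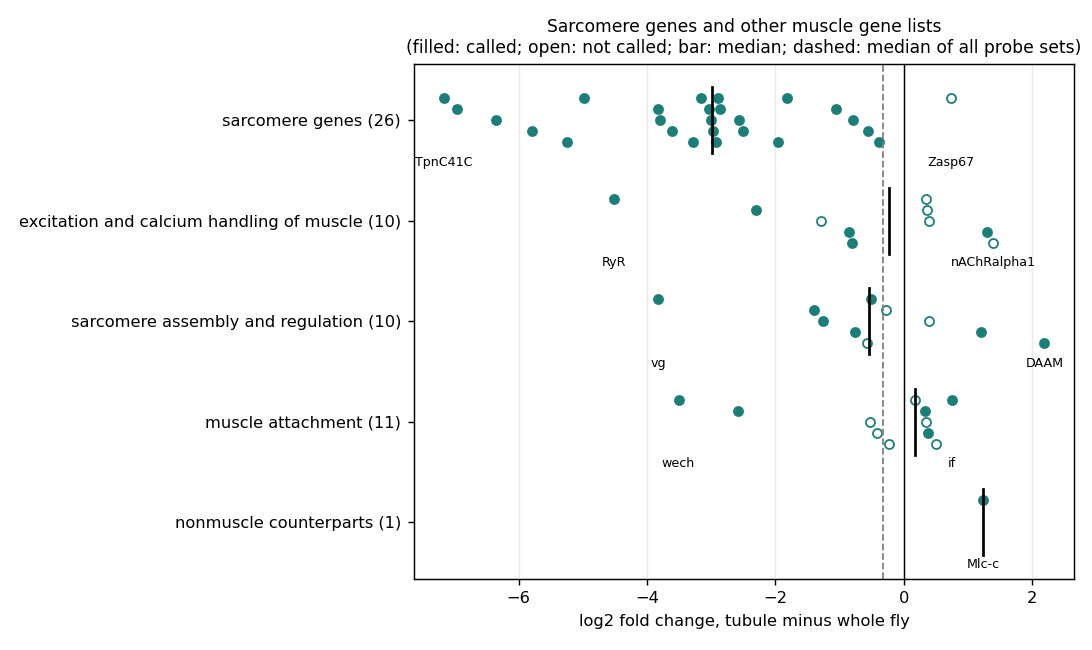
Log2 fold change, tubule minus whole fly, of the 26 sarcomere genes and of the measured genes of 4 other lists (points, filled where called, with the lowest and highest gene named), with the median of each list (bar) and of all probe sets (dashed). The sarcomere genes have a median of -2.99, and the other muscle lists medians between -0.54 and 0.18 with genes on both sides of 0. The single nonmuscle counterpart, Mlc-c, is at 1.24.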

How the data were processed

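RNA of tubules and of whole flies was hybridised to the Affymetrix Drosophila genome array, and the first pair was left out by the authors after quality control. The values deposited by the authors are signal intensities of the MAS 5.0 software, linear and scaled per array. Of the probe sets, 44 array controls were left out and 13966 tested. The annotation gives 12443 of them to 1 gene, 327 to several and 1196 to none, and 12394 were matched to RefSeq symbols. RefSeq coordinates were not used, since their build is not that of the array.

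The linear model was that of limma 3.58.1 (R 4.3.3, lmFit, then eBayes with a mean-variance trend) on log2 signals, with pair as a blocking factor. Benjamini-Hochberg adjustment ran over all probe sets, and an adjusted p under 0.05 made a call. Intervals are 95% intervals of that fit. For differences of ratios within a family, the interval is that of the mean of 5 pairs, and p is from an exact permutation test over 252 splits of the arrays. The pairing rests on the study's methods, which took flies of the same culture. Within a pair, the 2 arrays' deviations from their group means correlated by -0.089 to 0.091 (5 pairs, 6125 probe sets of mean signal 50 or more). With 5 arrays a group, their number limits the precision. The limma p-values weigh a mean difference against the spread between these arrays, moderated over all probe sets. The fit was tested on simulated data with independent arrays, no pair effect and far fewer changed probe sets than were called here. That test does not bear on the pairing.

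The members and all lists were chosen with earlier results of these arrays known. All 32 genes are accounted for. Values of every array are given for the lowest and highest gene of each role, the genes not called, and the actins and troponin Cs, as well as for genes whose arrays or probe sets stood apart. Alternatives were quantile normalization, RpL32 held constant, signals under 50 set to 50, 16 added to each signal, a mean of at least 50, no trend, no replicate block, another probe set per gene, and each pair left out.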

Additional observations from a re-analysis of the deposited data

Results flagged for a closer look

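In 3 of the 52 groups of 5 arrays examined (26 genes in 2 groups), a single array stood farther from the rest than Dixon's 95% limit for 5 values allows, where chance marks about 1 in 20 groups. The flightin gene fln had 202.4 in whole fly array 2, against 69.4 to 106.7 in the other 4. Actn had 252.4 in whole fly array 2, against 334.6 to 360.2 in the other 4. TpnC73F had 40.1 in tubule array 2, against 13.7 to 18.5 in the other 4. The causes were not tested, and all 3 genes were called lower with pair 2 left out (log2 fold change -5.76, -3.13 and -2.03).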

How the results depend on the processing

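The number of sarcomere genes lower in tubule stayed at 22 to 25 (of 22 to 26 tested) under the alternatives run, and at 25 with each pair left out, where their median ranged from -3.14 to -2.86, the flight muscle difference from -4.18 to -3.87, the calls over all probe sets from 4457 to 4877 lower and from 1962 to 2222 higher, and the difference of Mlp60A and Mlp84B from -0.38 to 0.015 (the last without pair 3). Most settings that moved a value concern scaling and low signals. Quantile normalization raised the median of all probe sets by 0.50 log2 and gave 4148 higher calls, 1 sarcomere gene higher (Zasp67), a flight muscle difference of -3.40 and a Mlp60A minus Mlp84B difference of 0.75. RpL32 held constant shifted all log2 fold changes by -0.34 and gave 1451 higher calls. The share of calls that were higher was 31.6% as scaled, 54.6% and 18.4% under these, 40.7% with signals under 50 set to 50 and 41.4% among probe sets with a mean of at least 50. With signals under 50 set to 50, 2453 probe sets were lower, the sarcomere median was -2.11, the flight muscle difference 0.69 and the Mlp60A minus Mlp84B difference 2.88. With 16 added they were -2.52, -1.02 and 1.20 for the last 3. The limit on mean signal left 2642 lower calls, with fewer probe sets tested. Without a trend 1 sarcomere gene, Zasp67, was higher. Without the replicate block 5247 probe sets were lower and 2491 higher, and 25 sarcomere genes were lower and 0 higher, so the pairing changed no such call. Other settings, added after the values were seen, gave a flight muscle difference of -4.32 (genes with a whole fly mean of at least 50) and -4.42 (TpnC41C counted with flight muscle). Neither is a check of that difference, as neither could bring it nearer to 0. The first leaves out Zasp67, the flight muscle gene that was not lower, and the second moves the gene of lowest fitted value. Signals under 50 limit what can be said of size.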
